A study of Homo sapiens with 4 samples.

Results

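The genes described here were the expressed antisense RNAs of H1299 cells, a human non-small cell lung cancer (NSCLC) line, compared between wild type and TTC28 Knockout cells. Members were chosen by biotype, level and count: they were the genes whose biotype in the authors' table is antisense, that reached 1 FPKM (fragments per unit of gene length and of library size) in 2 or more of the 4 libraries, and that had at least 40 counts summed over the libraries. Of 5583 antisense genes among the 58735 genes of the table, 3369 had a count, 502 reached the level threshold and 483 also reached the count threshold. ZFAS1, SNHG12, SNHG7 and SNHG10, hosts of small nucleolar RNAs, were left out, which gave 479 members. The rule used the levels of all 4 libraries and took no account of the difference between genotypes, but a member that passed through 1 genotype only had to differ in level.

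The wild type group held 2 libraries of H1299 cells with the genotype WT, and the TTC28 Knockout group held 2 libraries of H1299 cells edited with CRISPR/Cas9; all 4 were labelled untreated. The labels do not say whether the knockout cells were 1 clone or a pool, nor whether replicates were separate cultures, so p-values measure only the spread between these libraries, which may be technical. Library totals lay between 25120500 and 28885443 counts. TTC28 itself had 4.88, 5.44, 2.96 and 2.99 FPKM in wild type replicates 1 and 2 and knockout replicates 1 and 2, a log2 fold change of -0.79 (SE 0.0764), though a count over the full gene cannot see the edited bases. The keratin KRT18 (138 to 170 FPKM) and vimentin, VIM (300 to 366 FPKM), were high in all 4 libraries. The epithelial gene EPCAM, however, had only 0.0303 to 0.214 FPKM. The lung lineage factor NKX2-1 and the surfactant gene SFTPC were at 5 counts or fewer, and NAPSA, also of the lung lineage, had 14 to 34 counts.

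An antisense RNA is transcribed from the strand opposite to another gene, most often as a long noncoding RNA. Many start at a promoter shared with a coding gene and run away from it, some lie inside an intron or over the end of a gene, and a few are known to change the transcription, splicing or stability of their partner. Most have no described function, and their levels are usually below those of the coding gene. The partner of each member was taken as the opposite-strand gene with the largest exonic overlap, then the largest overlap of gene bodies, and otherwise the nearest opposite-strand coding gene within 5 kb, called a neighbour below. The sources used here do not say whether reads were counted by strand, and the kit named in the labels is not the stranded version of its series. Without strand, reads of a member and of its partner cannot be told apart where their exons overlap. Differences were tested with edgeR's quasi-likelihood test on raw counts, over the 13079 genes with 1 FPKM in at least 2 libraries, and a gene passed at a Benjamini-Hochberg adjusted p under 0.05. In bulk RNA, fewer cells that express a gene and less RNA per cell cannot be told apart either.

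The sequences at the starts of 4 pairs show how close a member lies to the RefSeq start of its partner. They are the 250 bases before the coding partner's start, read 5′ to 3′ on the partner's strand from RefSeq (GRCh38.p14). Capitals mark the first 10 bases of the antisense transcript, which runs leftwards on the other strand. The first 3 belong to pairs that fell together in the knockout, and the TRMT61A window belongs to a pair that moved in opposite directions.
RNASEH1, chr2:3558334-3558583, minus strand: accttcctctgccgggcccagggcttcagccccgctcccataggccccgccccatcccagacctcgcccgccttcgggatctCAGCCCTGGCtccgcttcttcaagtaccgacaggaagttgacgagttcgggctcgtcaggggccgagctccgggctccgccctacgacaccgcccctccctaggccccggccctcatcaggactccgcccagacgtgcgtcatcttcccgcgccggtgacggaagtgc
EXOC3, chr5:442926-443175, plus strand: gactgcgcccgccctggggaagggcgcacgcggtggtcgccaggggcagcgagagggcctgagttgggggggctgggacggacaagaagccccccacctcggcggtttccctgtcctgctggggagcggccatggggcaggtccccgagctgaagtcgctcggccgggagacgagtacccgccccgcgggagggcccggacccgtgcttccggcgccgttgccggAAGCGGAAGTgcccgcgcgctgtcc
DPH5, chr1:101025785-101026034, minus strand: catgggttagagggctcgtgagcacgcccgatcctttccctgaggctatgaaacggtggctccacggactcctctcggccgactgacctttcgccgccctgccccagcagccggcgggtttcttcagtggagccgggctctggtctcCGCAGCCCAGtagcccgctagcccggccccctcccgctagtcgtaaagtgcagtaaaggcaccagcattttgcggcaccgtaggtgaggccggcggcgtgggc
TRMT61A, chr14:103528946-103529195, plus strand: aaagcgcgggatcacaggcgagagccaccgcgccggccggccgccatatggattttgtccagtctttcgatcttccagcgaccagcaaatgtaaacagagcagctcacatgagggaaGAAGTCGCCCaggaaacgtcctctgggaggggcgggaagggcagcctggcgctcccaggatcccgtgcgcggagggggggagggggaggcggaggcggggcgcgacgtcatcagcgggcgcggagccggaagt
The annotated antisense start lay 159 bases before the RefSeq start of RNASEH1, 16 bases before that of EXOC3, 94 before that of DPH5 and 124 before that of TRMT61A. GENCODE 29, the annotation used for the overlaps, has other partner starts: 3558616 for RNASEH1, 443158 for EXOC3 and 101026088 for DPH5. By these starts the RNASEH1 and DPH5 windows lie inside the partner gene, and all 3 of these pairs overlap at their 5′ ends. AL133367.1 does not overlap TRMT61A by either annotation. The windows held 24, 29, 22 and 26 CG dinucleotides in that order, against a median of 11 in the first 250 bases of all 35116 RefSeq promoters. None of the 4 held the TATA box letters TATAAA, nor the CCAAT box, on either strand. CCGGAAG, a core that ETS factors bind, occurred at 2 places before EXOC3 and at 1 before TRMT61A. Of the 479 members, 120 matched a RefSeq promoter of their own, and those windows had a median of 18 CG dinucleotides. For the 73 of them with a partner start within 1 kb, a set closer to the 4 windows, the median was 21. TATAAA was found in 4.17% of these 120 windows and in 10.7% of all promoters. The CCAAT box was found in 35.0% and 32.0%, and the ETS core in 9.17% and 8.52%. Motifs were searched on both strands, and these are matches of letters, not binding sites.

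By position, 300 members shared exonic bases with their partner, 109 overlapped only its gene body, 61 had a neighbour and 9 had no partner. Head-to-head pairs, in which the 5′ ends overlap, made up 158 of the members, and 154 lay inside the partner gene. A further 81 met the partner tail to tail, 49 were divergent neighbours, 16 spanned the partner and 12 were convergent neighbours. In 262 members an annotated start lay within 1 kb of a start of the partner. The exonic bases shared with any opposite-strand gene were above 50% of the member in 24 members, and the median was 17.3% among the 300 that shared any. Partners were protein-coding for 456 of 470 members with a partner, and 18 partners were shared by 37 members, which are then not independent. Clone-based names, which mark genes without an assigned symbol, were carried by 316 members.

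Most members were low. Mean levels over the 4 libraries ran from 0.678 to 74.5 FPKM with a median of 1.77, against 5.93 for the 13079 genes tested, and 51 members reached a mean of 5 FPKM. All members together took 0.228% and 0.223% of the counts in the wild type libraries and 0.201% and 0.205% in the knockout libraries. Among 393 pairs with a tested partner, the member's FPKM had a median of 22.0% of the partner's, and 37 members lay above their partner. At the lower edge of the rule, AC002116.2 and AC008443.3 had a second-highest value of 1.0 FPKM, and AC124016.1 and LINC00649 just missed it at 0.994 and 0.996 FPKM. AC090912.1 and AC084824.5 entered with 41 summed counts, and AC011472.4 and AC011247.2 were out with 38 and 39.

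In the knockout, 69 members were higher and 89 were lower (edgeR's quasi-likelihood test, adjusted by Benjamini-Hochberg), and 321 did not pass. The 158 called members were 33.0% of all, against 50.3% of the tested genes (25.1% higher and 25.2% lower). At least 2-fold changes were found in 33 members that rose and 39 that fell, 15.0% together, against 5.21% of the tested genes (2.95% higher and 2.26% lower) and 15.5% of lincRNAs, long intergenic noncoding RNAs. Groups did not overlap in FPKM in 324 members, 67.6% against 75.5%. The median log2 fold change over members was -0.028 and over all tested genes -0.0. Leaving out wild type replicate 1 reduced the lower calls to 57 and the rises of at least 2-fold to 21, and leaving out wild type replicate 2 gave 35 higher, 58 lower and 18 rises of at least 2-fold. DESeq2 called 35 members higher and 56 lower. Of the 479 members, 78 had in the authors' deposited table an adjusted p under 0.05, with 29 higher and 49 lower, and all 78 were also called here in the same direction.

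Counts differed between members and the background, and their shares were therefore set side by side within ranges of summed counts. A member had a median of 223 counts over the 4 libraries, against 3060 for a tested gene, and the median SE of its log2 fold change was 0.249, against 0.0886. With 40 to 99 counts, 25.6% of 133 members were called, against 17.6% of all tested genes of that depth and 22.9% of lincRNAs. From 100 to under 200 counts the shares were 24.7%, 23.4% and 21.8%, and from 200 to under 400 they were 31.3%, 34.4% and 36.2%. With 400 or more, 46.0% of 150 members were called, against 54.7% of all tested genes and 50.9% of lincRNAs. This range has no upper limit, and depth was not alike in it. Its median SE was 0.148 for members, 0.0838 for all tested genes and 0.139 for lincRNAs. The share called was higher at 400 or more counts than at 40 to 99 counts in each class. Within each range, members and all tested genes lay closer together than the 33.0% and 50.3% of the whole sets. For changes of at least 2-fold, the shares of members and of all tested genes were 24.1% and 17.0%, 18.6% and 16.5%, 11.1% and 15.4%, and 7.33% and 3.75% in the same order of depth.

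**Figure D1:**
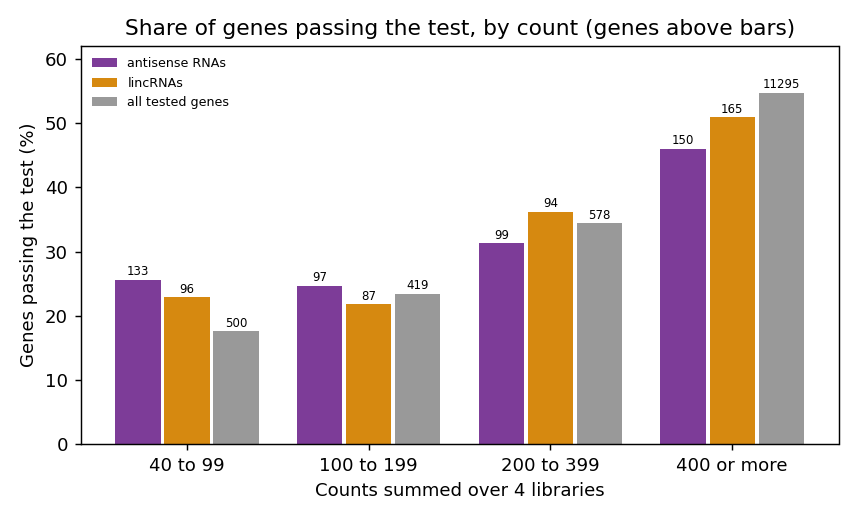
Share of genes that passed the test (percent) by their counts summed over the 4 libraries, for the antisense RNAs, lincRNAs and all tested genes; numbers above the bars are genes. Among genes with 400 or more counts, 46.0% of antisense RNAs and 54.7% of all tested genes passed. That range has no upper limit, so depth was not alike in it.

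The threshold shaped part of these calls. All 4 libraries reached 1 FPKM in 311 members, of which 40 were higher, 54 lower and 217 did not pass. Another 36 members reached 1 FPKM only in both wild type libraries, and 29 of them were called lower. In turn, 33 reached it only in both knockout libraries, and 20 of them were called higher. These 69 members entered through the genotype in which they were high, so the rule favours their directions, which are given as a description. Genes named below that entered in this way through the knockout included NCBP2-AS1, AC084036.1, AL451069.3, AC090673.1, AC097534.2 and HAGLR. Those that entered through wild type included AC004264.1, AC002454.1, AC036176.1, AC010834.2, AC090912.1, MZF1-AS1 and SLC16A1-AS1. The way of entry is not given for every named gene.

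Highest of all was AC099850.3 (chr17:59202677-59203829), which lies inside PRR11, a gene of the cell division programme. It had 73.7, 77.9, 66.0 and 80.6 FPKM in wild type replicates 1 and 2 and knockout replicates 1 and 2, the order kept below. The knockout values lay on both sides of the wild type values, and the log2 fold change was -0.05 (SE 0.103). FGD5-AS1 followed at 26.97, 27.8, 25.4 and 25.1 FPKM, with both knockout libraries just below both wild type libraries and a log2 fold change of -0.11 that did not pass the test (adjusted p = 0.127, and 0.0223 with total-count scaling). Its partner FGD5, an endothelial exchange factor, had no count in any library, so the antisense RNA stood without counts of its coding gene. DLGAP1-AS2 was at 22.1, 19.8, 17.4 and 16.6 FPKM beside DLGAP1, a scaffold of synapses, which had 7 counts or fewer per library. The groups of DLGAP1-AS2 did not overlap, and its log2 fold change was -0.30 (edgeR adjusted p = 0.005, and 0.0974 without wild type replicate 1).

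RNASEH1-AS1 and AC006329.1 were the 2 of the 8 highest members that fell at least 2-fold. AC006329.1 (chr7:101308346-101310985) is a convergent neighbour of IFT22, a small GTPase of intraflagellar transport. It had 24.2, 25.1, 12.7 and 8.94 FPKM, a 2.27-fold fall (log2 fold change -1.18, SE 0.141, edgeR adjusted p = 1.78e-05). Both knockout libraries were far below the wild type libraries, while IFT22 fell less, from 13.1 and 12.8 to 10.6 and 9.75 FPKM (log2 fold change -0.34). The local median is the median log2 fold change of up to 25 tested coding genes on each side, with fewer near a chromosome end. With it subtracted, IFT22 was at -0.11. A further 3 of the 8 passed the test with small changes: AC093673.1, a neighbour of the focal adhesion gene ZYX (-0.29), AC005288.1 at the Mediator gene MED1 (-0.29) and AL513165.1, a neighbour of FBXO10 (0.48). DESeq2 passed none of these 3. AC005288.1 missed the threshold without any 1 of the 4 libraries (adjusted p from 0.0525 to 0.174). AC093673.1 missed it without wild type replicate 1 (log2 fold change -0.303), wild type replicate 2 (-0.274) or knockout replicate 2 (-0.205). AL513165.1 missed it with total-count scaling (edgeR adjusted p = 0.0515). It also missed it without wild type replicate 2 (log2 fold change 0.345), knockout replicate 1 (0.477) or knockout replicate 2 (0.488).

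**Figure D2:**
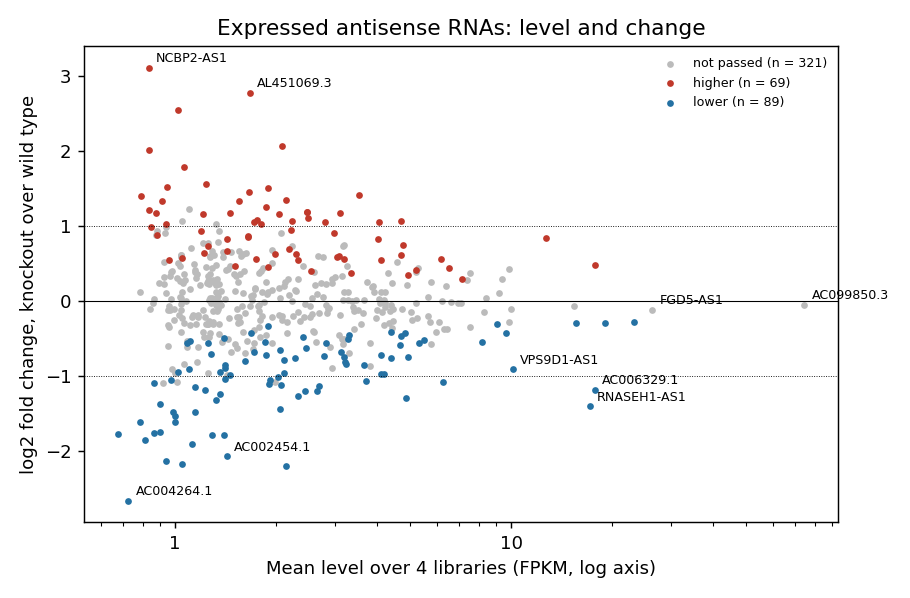
Mean FPKM over the 4 libraries (log axis) against the log2 fold change of knockout over wild type for the 479 members, coloured by the edgeR call (69 higher, 89 lower, 321 not passed); dotted lines mark 2-fold changes. The widest changes lie at low levels, while RNASEH1-AS1 and AC006329.1 stand out among the members above 10 FPKM.

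Of the 12 largest falls, 6 lay beside a partner that was lower too. AC004264.1 (chr22:30246205-30246998), head to head with LIF, a cytokine of the interleukin-6 family, had 1.49, 1.02, 0.136 and 0.258 FPKM from 31, 22, 3 and 5 counts. Its knockout values were all below its wild type values, as the choice of these falls required. Its summed counts scaled to library size were 6.47-fold lower (95% counting interval 3.06 to 15.8). LIF itself fell from 3.49 and 3.47 to 0.823 and 0.712 FPKM (log2 fold change -2.17, SE 0.143, edgeR adjusted p = 1.03e-07). The pair shares 175 exonic bases, 22.0% of AC004264.1. AL109741.1 (chr1:101235683-101236528), a divergent neighbour of S1PR1, the sphingosine-1-phosphate receptor 1, had 3.79, 3.28, 1.07 and 0.406 FPKM. Both genes of the pair fell, AL109741.1 by 2.20 and S1PR1 by 0.60 on the log2 scale (edgeR adjusted p = 0.000947 and 9.24e-05), and S1PR1 was at -0.37 with the local median subtracted. AC002454.1 (chr7:92836483-92917187), head to head with the cell cycle kinase gene CDK6, had 2.63, 1.98, 0.645 and 0.43 FPKM, 4.19-fold lower in the fit. CDK6 fell less, from 20.5 and 21.5 to 14.8 and 15.9 FPKM.

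Several other large falls stood beside partners that did not fall or were barely expressed. AC036176.1, head to head with KDSR, an enzyme of sphingolipid synthesis, had 1.896, 1.64, 0.274 and 0.678 FPKM (log2 fold change -1.91, SE 0.427, edgeR adjusted p = 0.00228). KDSR lay at 10.9, 11.3, 11.0 and 11.7 FPKM, with a log2 fold change of 0.04 (SE 0.0638). AC010834.2, a divergent neighbour of the RNA-binding protein gene RBM12B, had 2.02, 2.01, 0.745 and 0.386 FPKM. RBM12B was higher in the knockout by 0.27 on the log2 scale. Its call was lost with total-count scaling (edgeR adjusted p = 0.0577) and in limma on log2(FPKM + 1) (0.0602) and log2(FPKM + 0.1) (0.0606). It was also lost without wild type replicate 1 (log2 fold change 0.187) or knockout replicate 2 (0.228). AC022509.3, AC026740.1 and SLC25A21-AS1 fell by 2.13, 1.78 and 1.75 on the log2 scale, and their partners SSPN, TPPP and SLC25A21 were below the level needed for testing. AC026740.1 was at -1.15 with the local median subtracted. AP001453.2, AC090912.1 and AC022079.2, at PPP1R14B, RBBP8 and CCDC91, were also among the 12 largest falls, at -1.84, -1.77 and -1.75, and all 3 partners were lower too. DESeq2 passed none of these 3 members. AP001453.2 missed the threshold without wild type replicate 2 (edgeR adjusted p = 0.0754) or knockout replicate 2 (0.0643), AC022079.2 without wild type replicate 1 (0.106) or knockout replicate 1 (0.0999), and AC090912.1 without wild type replicate 1 (0.101), wild type replicate 2 (0.0906) or knockout replicate 1 (0.0935).

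Most of the 12 largest rises came from low counts. NCBP2-AS1 (chr3:196939877-196942534) lies inside NCBP2, the small subunit of the nuclear cap-binding complex, and had 4, 1, 23 and 21 counts. Scaled sums were 9.01-fold higher in the knockout (95% counting interval 3.58 to 29.1), and the fitted log2 fold change was 3.11 (SE 0.623, edgeR adjusted p = 0.00105). NCBP2 was lower by 0.20 on the log2 scale, a call lost without wild type replicate 1 (edgeR adjusted p = 0.1), wild type replicate 2 (0.0681) or knockout replicate 2 (0.074). AL451069.3 (chr10:132433733-132441484), which has no partner within 5 kb, had 0.339, 0.507, 3.40 and 2.42 FPKM. It was 6.84-fold higher in the knockout (log2 fold change 2.77, SE 0.335, edgeR adjusted p = 1.88e-05). Every knockout value was above every wild type value, as the choice of these rises required. AC084036.1, inside the potassium channel gene KCNAB1, had 4, 4, 29 and 18 counts, and BX293535.1, a convergent neighbour of AHDC1, had 6, 6, 27 and 23. AHDC1, a gene encoding a nuclear AT-hook protein, rose with it, from 3.64 and 3.98 to 7.24 and 7.31 FPKM (log2 fold change 0.94, SE 0.0765).

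AL591845.1 (chr1:36323734-36329221), head to head with EVA1B, was one of the better counted rises, with 58, 39, 144 and 125 counts and a log2 fold change of 1.5 (SE 0.223, edgeR adjusted p = 0.000105). It shares 16.3% of its exonic bases with SH3D21 on its own strand, and reads there cannot be told apart. EVA1B had 95.9, 92.9, 130 and 91.3 FPKM; knockout replicate 1 was high and knockout replicate 2 was below both wild type libraries. EVA1B did not pass the main test (log2 fold change 0.23). It passed with no FPKM filter (edgeR adjusted p = 0.00898) and with a replicate block (0.00265). Without knockout replicate 2 its log2 fold change was 0.454. AC009902.2, at the fatty acid binding protein gene FABP5, and AL354836.1, at the proteasome gene ADRM1, belong to the opposite pairs below. The remaining 5 of the 12 largest rises, AC011498.6, AC097534.1, AL162274.2, SAPCD1-AS1 and AC005041.3, had 43 to 57 summed counts and log2 fold changes from 1.4 to 2.0. DESeq2 passed none of these 5. AL162274.2, SAPCD1-AS1 and AC005041.3 missed the threshold without any 1 of the 4 libraries (edgeR adjusted p from 0.0511 to 0.226). AC011498.6 missed it in limma on log2(FPKM + 0.1) (adjusted p = 0.0534), and without wild type replicate 1 (log2 fold change 1.219) or knockout replicate 1 (1.94). AC097534.1 missed it without wild type replicate 1 (1.709), wild type replicate 2 (1.863) or knockout replicate 2 (1.128).

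**Figure D3:**
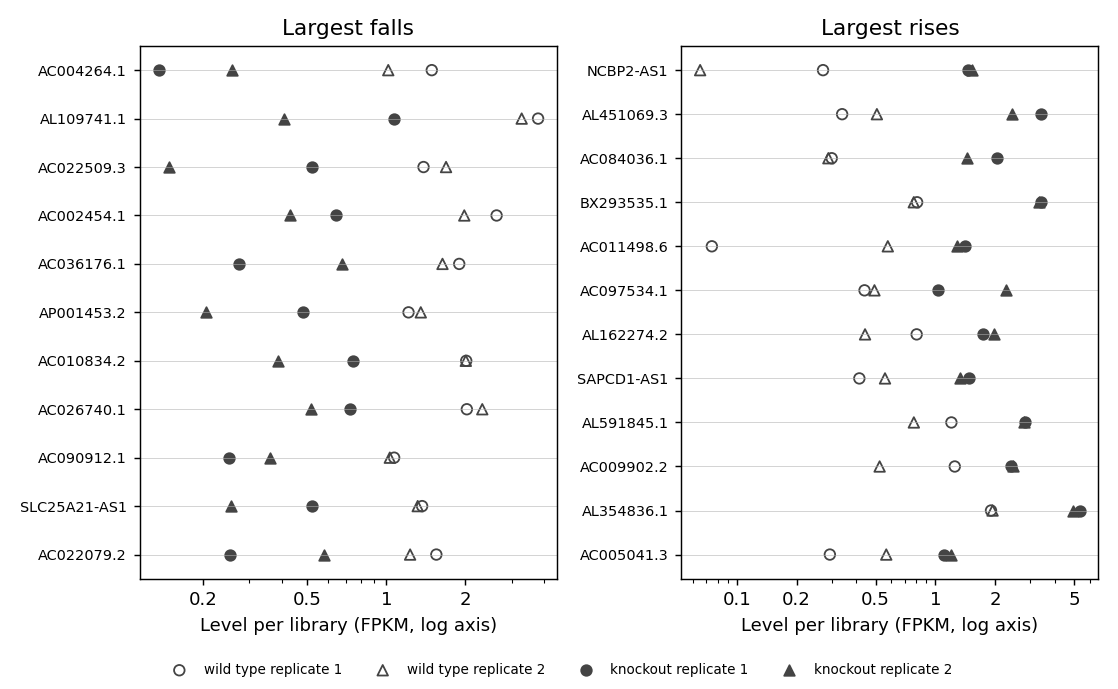
Levels in the 4 libraries (FPKM, log axis) of 11 of the 12 members with the largest falls and the 12 with the largest rises among those that passed the test; open symbols are wild type and filled symbols knockout. Every wild type value lies on one side of every knockout value, as the choice of these genes required, and all but 1 of the values lie below 5 FPKM.

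The comparison of each member with its opposite-strand partner gave more pairs that moved together than apart. Both genes of 82 pairs passed the test: 24 pairs were both higher, 39 both lower, and 19 moved in opposite directions. The test called 109 higher and 114 lower among 382 distinct tested partners (58.4%, against 50.3% of all tested genes and 55.0% of tested protein-coding genes). In 49 pairs only the member passed, in 148 only the partner, and in 114 neither. Without wild type replicate 1 the same-direction and opposite pairs numbered 37 and 10, without wild type replicate 2 they numbered 34 and 9, and without knockout replicate 2 the opposite pairs numbered 12. DESeq2 gave 35 and 11.

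Over all 393 pairs the signs of the 2 log2 fold changes were equal in 64.4%, with Pearson's r of 0.403 and Spearman's rho of 0.385. These points share the same 4 libraries, and some share exonic bases or a chromosomal region. The share of equal signs was 65.3% in the 248 pairs with exonic overlap, 66.3% in the 86 pairs whose gene bodies but not exons overlap, and 57.6% in the 59 neighbours. By the part of the member's exonic bases that lie on the partner, equal signs were found in 62.8% of 145 pairs with none, 64.3% of 84 with up to 10%, 67.1% of 85 with 10 to 25% and 64.6% of 79 above 25%. Pearson's r in the same order was 0.389, 0.438, 0.464 and 0.294. The pairs with none join the gene-body pairs and the neighbours, whose shares of equal signs differ. Whether shared reads add to the agreement was not tested. Of the 4 orientations with the most pairs, head-to-head pairs had the highest correlation (r = 0.513 over 144 pairs), followed by members inside the partner (0.363), tail-to-tail pairs (0.324) and divergent neighbours (0.165). By equal signs the order differed, with 67.8% of tail-to-tail pairs, 66.4% of members inside the partner, 65.3% of head-to-head pairs and 58.3% of divergent neighbours.

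The log2 fold change of a member was also set beside that of the coding genes around it. The local median, taken over up to 25 genes on each side, left out all members and partners. Its sign equalled the member's in 307 of 479 members (64.1%, r = 0.326), close to the share for partners. With this local median subtracted from both genes of a pair, the signs were equal in 59.0% and r was 0.307. All 69 higher and all 89 lower members kept their sign when it was subtracted.

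**Figure D4:**
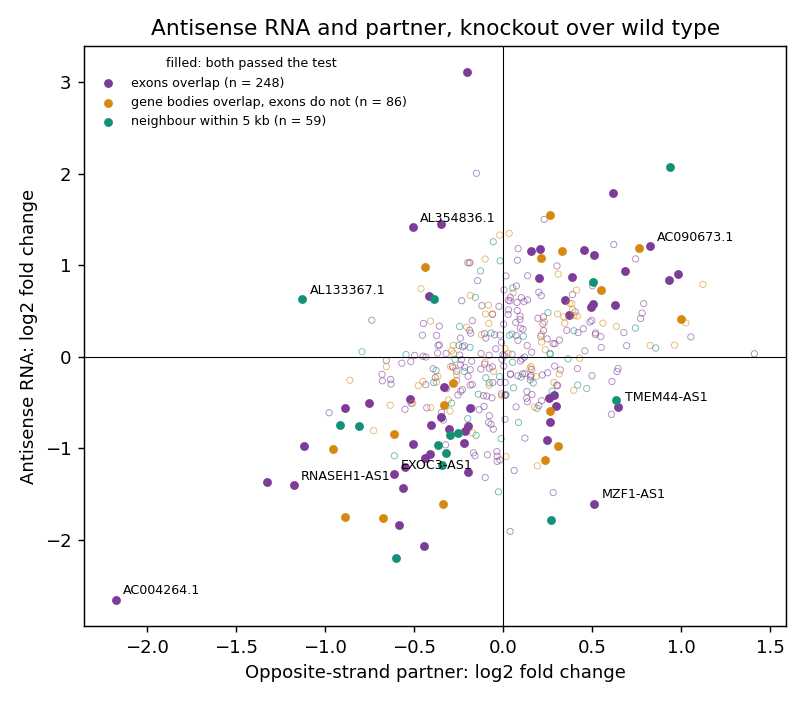
Log2 fold change of knockout over wild type for the opposite-strand partner (horizontal) and the antisense RNA (vertical) in 393 pairs, coloured by the kind of overlap; filled points are the 82 pairs in which both genes passed the test. More filled points lie in the lower left and upper right (63) than in the upper left and lower right (19), and the members spread more widely than the partners.

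Of the pairs that moved together by at least 0.5 on the log2 scale, RNASEH1-AS1 and RNASEH1 came first in the order of the larger adjusted p. RNASEH1 encodes ribonuclease H1, which removes the RNA strand of RNA-DNA hybrids. RNASEH1-AS1 (chr2:3558492-3561745) had 26.8, 23.0, 9.87 and 8.91 FPKM, and RNASEH1 had 11.8, 13.4, 5.58 and 5.54 FPKM. Both genes were low in both knockout libraries, by 2.64-fold for the antisense RNA (log2 fold change -1.40, SE 0.107, edgeR adjusted p = 3.76e-07) and by -1.18 on the log2 scale for RNASEH1 (SE 0.0915, adjusted p = 4.47e-07). The antisense RNA stood at 227%, 172%, 177% and 161% of its partner's FPKM, so it was the more abundant of the pair per length in every library. The genes share 125 exonic bases, 10.3% of RNASEH1-AS1. The coding genes around them were also lower, with a local median of -0.68, and what remained after subtracting it was -0.72 for RNASEH1-AS1 and -0.50 for RNASEH1.

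EXOC3-AS1 (chr5:441498-443160) and EXOC3, a subunit of the exocyst that tethers secretory vesicles, start 16 bases apart by the RefSeq start of EXOC3. EXOC3-AS1 had 7.30, 6.54, 3.11 and 2.54 FPKM and EXOC3 7.34, 8.01, 4.99 and 5.01 FPKM. Each gene was lower in both knockout libraries, EXOC3-AS1 more so (2.44-fold, log2 fold change -1.28, edgeR adjusted p = 1.25e-05) than EXOC3 (log2 fold change -0.61, edgeR adjusted p = 1.77e-05). They share only 3 exonic bases. The local median there was -0.72, and subtracting it left EXOC3-AS1 at -0.56 and turned EXOC3 to 0.11. AC093157.1 (chr1:101025878-101087268) and DPH5, an enzyme of diphthamide synthesis, fell alike. AC093157.1 had 3.10, 2.90, 1.02 and 1.20 FPKM (log2 fold change -1.43, edgeR adjusted p = 1.16e-05), and DPH5 had 18.3, 16.8, 12.5 and 11.2 FPKM (-0.56, edgeR adjusted p = 0.000107, and -0.33 with the local median subtracted).

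DHRS4-AS1, which spans the dehydrogenase gene DHRS4, had 1.82, 2.04, 0.919 and 1.04 FPKM, and DHRS4 had 2.75, 2.29, 1.26 and 1.05 FPKM. The log2 fold changes were -0.98 (-0.64 with the local median subtracted) and -1.12; DHRS4 has close copies beside it, and the sources used here do not say how the authors' counting shared reads among them. FLJ46906, head to head with NHSL1, had 3.07, 4.30, 1.56 and 1.64 FPKM and fell by 1.20 on the log2 scale, and NHSL1 fell by 0.55. In each of these pairs both knockout libraries were below both wild type libraries for both genes.

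Pairs that rose together included 2 at strongly expressed coding genes. AC090673.1 (chr12:65851340-65882167) lies inside HMGA2, which encodes an architectural chromatin protein, and had 0.55, 0.463, 1.14 and 1.20 FPKM. HMGA2 had 66.4, 67.7, 114 and 123 FPKM. Both rose, by 1.21 and 0.83 on the log2 scale (edgeR adjusted p = 7.38e-05 and 1.21e-06), and the antisense RNA stayed between 0.683% and 0.996% of HMGA2. The genes share 384 exonic bases, 6.36% of AC090673.1, and whether reads of HMGA2 entered the count of AC090673.1 was not tested. AC112907.3 (chr3:186781780-186784179), head to head with the RNA helicase gene EIF4A2, had 1.38, 1.65, 3.06 and 2.75 FPKM beside 58.4, 56.0, 89.98 and 93.6 FPKM for EIF4A2. It rose 1.92-fold, and it too was small beside its partner, at 2.37% to 3.41% of its FPKM with 435 shared exonic bases.

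Opposite changes were found in 19 pairs, 12 with a lower member beside a higher partner and 7 the other way. The widest on the partner's side was AL133367.1 (chr14:103525010-103529072), a divergent neighbour of TRMT61A, the catalytic subunit of a tRNA methyltransferase, whose shared start region is printed above. AL133367.1 had 1.54, 1.57, 2.45 and 2.35 FPKM, and TRMT61A had 33.0, 32.5, 15.6 and 14.3 FPKM. The knockout libraries were high for the antisense RNA and low for the coding gene, with log2 fold changes of 0.63 (SE 0.132, edgeR adjusted p = 0.00148) and -1.13 (SE 0.0673, edgeR adjusted p = 4.94e-08). No exonic base is shared, and the antisense RNA went from 4.67% and 4.84% of TRMT61A to 15.7% and 16.4%. AL354836.1 (chr20:62305432-62306325), inside ADRM1, a ubiquitin receptor of the proteasome, had 1.91, 1.94, 5.32 and 4.93 FPKM, and ADRM1 had 64.0, 62.6, 49.5 and 39.4 FPKM. Its log2 fold change was 1.42 (SE 0.232, edgeR adjusted p = 0.000226) against -0.51 for ADRM1, and no library of one genotype crossed those of the other for either gene.

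MZF1-AS1 (chr19:58559129-58574797), which spans the zinc finger gene MZF1, had 1.15, 1.23, 0.375 and 0.40 FPKM, and MZF1 had 2.19, 2.18, 2.85 and 3.37 FPKM. The antisense RNA was 3.05-fold lower in the knockout (log2 fold change -1.61, SE 0.238, edgeR adjusted p = 0.000103), and MZF1 was higher by 0.51 (edgeR adjusted p = 0.0015). The genes share 1181 exonic bases, 39.8% of MZF1-AS1, the largest exonic overlap, in bases, among the opposite pairs named here. Whether reads were shared between them was not tested. SLC16A1-AS1 (chr1:112956415-113047055), head to head with the lactate and pyruvate transporter gene SLC16A1, had 1.57, 1.61, 0.963 and 0.977 FPKM beside 19.6, 19.6, 22.8 and 24.1 FPKM for SLC16A1. It was 1.64-fold lower in the knockout, with an SE of 0.108 and an edgeR adjusted p of 0.000124, and SLC16A1 was higher by 0.26 on the log2 scale. With the local median of -0.27 subtracted, the antisense RNA was at -0.44 and SLC16A1 at 0.53.

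TMEM44-AS1, tail to tail with TMEM44, was at 9.55, 9.94, 7.25 and 6.04 FPKM and TMEM44 at 8.24, 8.07, 12.6 and 12.8 FPKM. The order of the pair changed between genotypes, with the antisense RNA at 116% and 123% of TMEM44 in wild type and 57.4% and 47.0% in the knockout. FOXN3-AS1, inside the forkhead repressor gene FOXN3 and 242 bases from one of its starts, also crossed its partner, from 156% and 118% to 53.4% and 57.8% of its FPKM. It fell by 0.97 on the log2 scale (edgeR adjusted p = 0.000471), and FOXN3 was higher by 0.31. The call of FOXN3 was lost in limma on log2(FPKM + 1) (adjusted p = 0.0571) and log2(FPKM + 0.1) (0.0584). It was also lost without wild type replicate 1 (log2 fold change 0.197). AC097534.2, head to head with SAP30, a subunit of the Sin3 histone deacetylase complex, had 0.612, 0.53, 1.15 and 1.10 FPKM while SAP30 was lower by 0.44 on the log2 scale. AC009902.2 had 1.25, 0.524, 2.41 and 2.45 FPKM beside FABP5 at 43.9, 39.7, 33.6 and 32.0 FPKM, and its call was lost without wild type replicate 2 (edgeR adjusted p = 0.0886).

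**Figure D5:**
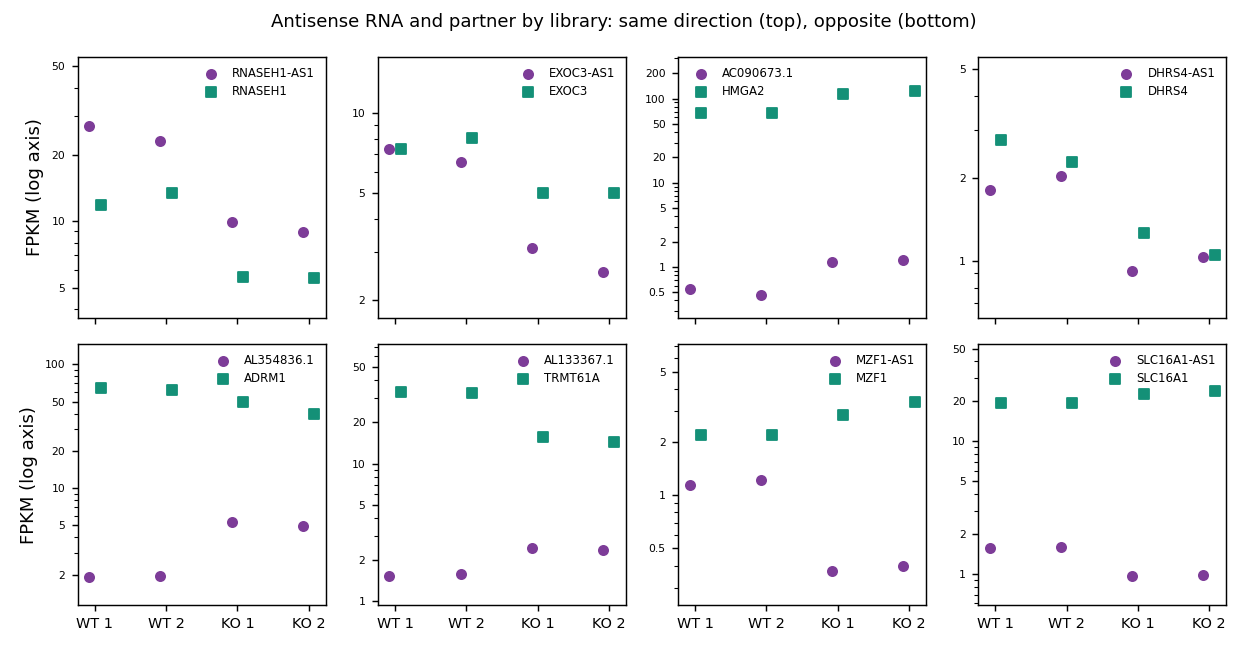
FPKM (log axis) of 4 antisense RNAs and partners that moved in the same direction (top row) and 4 that moved in opposite directions (bottom row), in each wild type (WT) and knockout (KO) library. In AL133367.1 with TRMT61A and AL354836.1 with ADRM1 the distance between the genes narrows in the knockout, and in MZF1-AS1 with MZF1 and SLC16A1-AS1 with SLC16A1 it widens.

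The HOX clusters, arrays of homeobox genes that hold positional identity, carry antisense RNAs between their coding genes. Of 18 such genes in the list, 15 have the antisense biotype and 6 were members; HAGLR was higher and the other 5 did not pass the test, with a median log2 fold change of 0.038. HAGLR (chr2:176164051-176188958), head to head with HOXD1, had 0.792, 0.848, 1.57 and 1.57 FPKM, both knockout values above both wild type values (log2 fold change 0.94, SE 0.15, edgeR adjusted p = 0.00019). HOXD1 had 26 counts or fewer per library and was not tested. HOXB-AS1, beside the cluster gene HOXB3, was the highest at 6.096, 6.005, 5.06 and 5.44 FPKM (log2 fold change -0.20). HOXB-AS2, HOXB-AS3, HOXB-AS4 and HOXC-AS1 had log2 fold changes of -0.11, -0.05, 0.12 and 0.47, each with an SE of 0.224 or more, so changes of this size could not be resolved at their depth.

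Of 32 listed noncoding RNAs with a role described in other cells, 31 were in the table. There 17 have the antisense biotype, and 8 were members. THAP9-AS1, ZEB1-AS1, SBF2-AS1, TMPO-AS1 and PXN-AS1 were lower, FGD5-AS1, NNT-AS1 and MCM3AP-AS1 did not pass the test, and the median log2 fold change was -0.365. Over all members 18.6% were lower, and over all tested genes 25.2%. TMPO-AS1, head to head with the lamina gene TMPO, had 2.10, 2.55, 1.67 and 1.13 FPKM and fell by 0.72 on the log2 scale, a call lost without wild type replicate 2 (edgeR adjusted p = 0.0636). TMPO was at 25.5, 27.1, 23.8 and 25.8 FPKM (log2 fold change -0.08). ZEB1-AS1, head to head with ZEB1, a repressor of epithelial genes, had 1.98, 1.88, 1.30 and 1.58 FPKM, while ZEB1 had a log2 fold change of 0.01 (SE 0.0835). The fall of ZEB1-AS1 by 0.42 was lost in DESeq2 (adjusted p = 0.122) and in limma on log2(FPKM + 1) (0.0735) and log2(FPKM + 0.1) (0.0767). It was also lost without wild type replicate 1 (log2 fold change -0.38), wild type replicate 2 (-0.468) or knockout replicate 1 (-0.278).

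THAP9-AS1, PXN-AS1 and SBF2-AS1 were lower by 0.31, 0.55 and 0.49 on the log2 scale, and THAP9-AS1 was at -0.55 with the local median subtracted. PXN-AS1, which overlaps the paxillin gene PXN by 38.6% of its exonic bases, had 3.32, 3.36, 1.96 and 2.60 FPKM; its call was lost without wild type replicate 1 (edgeR adjusted p = 0.0521), wild type replicate 2 (0.0546) or knockout replicate 1 (0.0991). That of SBF2-AS1 was lost in DESeq2 (adjusted p = 0.061) and in limma on log2(FPKM + 1) (0.062) and log2(FPKM + 0.1) (0.0651). It was also lost without wild type replicate 1 (log2 fold change -0.393) or knockout replicate 2 (-0.404). The call of THAP9-AS1 was lost without wild type replicate 1 (-0.269) or knockout replicate 1 (-0.22). MCM3AP-AS1 had 1.07, 1.05, 1.01 and 1.04 FPKM, a narrow range in which the knockout libraries were slightly below the wild type, while its tail-to-tail partner MCM3AP fell from 11.5 and 12.6 to 7.55 and 7.69 FPKM (log2 fold change -0.66, edgeR adjusted p = 3.96e-06). With the local median of -0.49 subtracted, MCM3AP was at -0.17 and MCM3AP-AS1 at 0.45. The pair shares 1427 exonic bases, 18.8% of MCM3AP-AS1. NNT-AS1 likewise had a log2 fold change of -0.21 that did not pass, whereas NNT, the mitochondrial transhydrogenase gene, was higher by 0.50; with the local median subtracted they were at 0.10 and 0.81, and without knockout replicate 2 NNT-AS1 passed (edgeR adjusted p = 0.0417).

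Members were set beside the coding genes of 6 chromosome segments, chosen with earlier results of these data known. In the first 20 Mb of chromosome 2, 2 of 3 members were negative, with 1 called lower (RNASEH1-AS1) and 1 called higher at 1.34, while 31 of 36 coding genes were lower (median -0.68). In the first 10 Mb of chromosome 5 both members, EXOC3-AS1 and AC026740.1, were lower, and 19 of 22 tested coding genes there were lower, with a median of -0.76. Between 90 and 210 Mb of chromosome 2, 12 of 13 members had a positive log2 fold change and 6 passed as higher (median 0.42), while 192 of 302 coding genes passed as higher (median 0.365). In the first 40 Mb of chromosome 12, 12 of 14 members were negative and 6 passed as lower (median -0.54), while 94 of 135 coding genes passed as lower (median -0.43). From 40 to 70 Mb of the same chromosome 10 of 13 were positive and 3 passed as higher (median 0.26), while 132 of 213 coding genes passed as higher (median 0.30). On chromosome 21, 7 of 9 members were below zero and 1 passed as lower (median -0.27), against 66 of 94 coding genes (median -0.43).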

How the data were processed

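RNA-seq libraries of H1299 cells (wild type replicates 1 and 2, TTC28 Knockout replicates 1 and 2) were deposited as 1 table. Per the file headers it holds a raw count and an FPKM value per gene and library. It also holds the authors' comparison: group means of scaled counts (a signal), a log2 fold change, a p-value and an adjusted p-value, deposited without the tool. HISAT2 2.0.5 and hg38 are named in the submitters' processing notes; the sources used here do not give the counter, strand setting or filters. The table's gene IDs, coordinates and lengths matched GENCODE 29, whose exons gave the overlaps with partners.

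Counts were fitted with edgeR 4.0.16 (TMM factors, glmQLFit and glmQLFTest, R 4.3.3, two-sided) over 13079 genes that reached 1 FPKM in 2 or more libraries. No block was used, and p-values were adjusted by Benjamini-Hochberg over all of them. TMM factors were 0.9775 to 1.023, the biological coefficient of variation was 0.0566, and the median SE of a log2 fold change was 0.0886. Alternatives were DESeq2 1.42.0, limma 3.58.1 on log2(FPKM + 1) and log2(FPKM + 0.1), and total-count and median-of-ratios scaling. Further ones were other FPKM filters, a replicate block and each library left out. The local median of up to 25 coding genes on each side was also subtracted, and partners were also taken by gene-body overlap. Intervals on count ratios are exact binomial at 95% and cover counting error only.

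Genes named in the text were the 8 highest members, up to 12 rises and 12 falls of at least 2-fold that passed the test without overlap of the groups, up to 8 opposite pairs, up to 8 same-direction pairs with both changes at least 0.5 on the log2 scale, 2 lists of antisense genes (HOX clusters and described roles), the genes at the thresholds, and the partner of each. Some were left out of the text, and 1 of the 12 falls is not reported here. Members and lists were chosen with earlier results of these data known. The fits were tested on simulated data.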

Additional observations from a re-analysis of the deposited data

How the results depend on the processing

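With DESeq2, 35 members were higher and 56 lower, 17 and 25 of them at least 2-fold, and 35 pairs moved in the same direction and 11 in opposite directions. With limma on log2(FPKM + 1), 5 members were at least 2-fold higher and 5 lower; that scale understates the change of low genes. Leaving out 1 library gave 35 to 55 higher and 57 to 76 lower members, 18 to 27 and 26 to 40 at least 2-fold, 74 to 103 higher and 81 to 116 lower partners, and 34 to 52 same-direction and 9 to 18 opposite pairs. After such an omission 1 library stands alone and is assumed to vary like the other group. Total-count scaling gave 58 higher and 107 lower members, and no FPKM filter gave 69 and 96. Subtracting the local median reversed EXOC3 (0.109) and HOXC6 (-0.058) among the named genes that passed the test; of those that did not, FGD5-AS1 (0.11), NNT-AS1 (0.10), HOXB-AS1 (0.015), MCM3AP-AS1 (0.45) and KDSR (-0.037) were among the genes that changed sign. The other counts stayed within 1.5 times under median-of-ratios scaling, the other FPKM filters, limma on log2(FPKM + 0.1) and partners by gene-body overlap. Of the 158 called members, 67 kept the call in all 12 alternative fits and 91 in DESeq2; the cause was not tested. Same-numbered libraries did not deviate together (correlation -0.0123), which cannot show whether they were handled together. A replicate block gave 77 higher and 98 lower members, and 73 same-direction and 24 opposite pairs. With it 7108 of the tested genes were called, against 6581 without it. The median SE of a member was 0.249 on the log2 scale.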
